A study of Mus musculus with 12 samples.

Results

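The cytosolic ribosomal protein genes encode the proteins of the large (Rpl) and small (Rps) subunits of the ribosome that translates nuclear mRNA. They were taken by symbol among protein-coding genes: Rpl or Rps with a number and at most a suffix a, l or x, the stalk genes Rplp0, Rplp1 and Rplp2, and Rpsa. The S6 kinases, whose symbols also begin with Rps, were left out. This rule took 80 of the 55322 genes of the table, 49 of the large and 31 of the small subunit, on 19 chromosomes. It used no measured value. After a filter on low values (at least 3 libraries with FPKM of 1 or more), 77 of the 80 were tested, 46 Rpl and 31 Rps, among 14538 genes.

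Ribosomal proteins are made in near equal amounts and assembled with ribosomal RNA in the nucleolus, so their mRNAs are among the most abundant of most cells. Their mRNAs begin with a run of pyrimidines, the 5′ terminal oligopyrimidine (TOP) motif, through which the kinase mTORC1 and the protein LARP1 control how strongly they are translated. Dendritic cells raise protein synthesis when they sense microbial products such as lipopolysaccharide (LPS), and lymphoid and myeloid progenitors both give rise to dendritic cells.

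The study profiled conventional dendritic cells of type 2 (cDC2, cells that present antigen to CD4 T cells) sorted from mouse spleen on day 4 after intraperitoneal LPS at 5 mg/kg, which all 4 groups received, with 3 libraries in each. L-cDC2 were the tdTomato-positive and M-cDC2 the tdTomato-negative cDC2 of Il7r-cre; Rosa26-lsl-tdTomato mice, in which Cre driven from the Il7r gene leaves a lasting mark in cells with a history of Il7r expression. In the transfer system, wild-type C57BL/6J progenitors carrying CD45.2 were injected into bone marrow of B6.SJL hosts, which carry CD45.1, and the donor-derived cDC2 are called CLP-cDC2 where common lymphoid progenitors (CLPs) were given and CDP-cDC2 where common dendritic cell progenitors (CDPs) were. The stated age was 7 to 8 weeks, given for wild-type mice alone, and no preparation of the hosts is described in the sources used here. The reporter groups were compared with each other, the transfer groups with each other, and each transfer group with the reporter group of like origin, as the stated purpose was to compare CLP-derived cells with L-cDC2. Separate animals are not named for the replicates, so p-values here refer to the spread between libraries, which may be technical. Libraries are named by group and replicate number, with CDP3 for CDP-cDC2 library number 3.

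Depth ranged from 26543345 to 73732243 reads assigned to genes per library. All 11 markers of cDC2 were detected. Their summed level was 14713 to 17911 TPM in CLP-cDC2, 17177 to 17856 in L-cDC2, 20573 to 22751 in M-cDC2 and 22549 to 24980.4 in CDP-cDC2. H2-Ab1 set most of this sum, at 6712 to 11336 FPKM over the 12 libraries, where no other cDC2 marker exceeded 220. Such sums follow their most abundant markers, and single markers can go the other way. Of 7 monocyte and macrophage markers, none was listed at 0 in all libraries, and their sum was 134 to 371 TPM in CLP-cDC2 and 995 to 1312 in CDP-cDC2, against 358 to 368 in L-cDC2 and 661 to 749 in M-cDC2. The 8 B cell markers summed to 317 to 337 TPM in L-cDC2 and to at most 158 in any other library. The 7 plasma cell markers summed to 1846 to 3014 TPM in L-cDC2, 144 to 1011 in CLP-cDC2 and at most 207 elsewhere. Igkc stood at 805 to 1370 FPKM in L-cDC2. CLP2 was the high CLP-cDC2 library, with Igkc at 429 FPKM against 20.1 and 28.5. It also had the most C1qb (49.8 FPKM against 0.108 and 0.0216) and Hba-a1 (153 against 5.29 and 16.0). The 5 erythroid markers summed to 69.6 to 574 TPM in L-cDC2, 91.5 to 552 in CLP-cDC2 and at most 161 elsewhere. The 5 neutrophil markers reached at most 91.7 TPM in L-cDC2, 28.9 in M-cDC2 and 3.47 elsewhere. The 7 NK cell markers summed to 404 to 592 TPM in L-cDC2 and to at most 25.4 in the other groups. The 7 cDC1 markers summed to 266 to 313 TPM in L-cDC2, 484 to 505 in M-cDC2, 376 to 493 in CLP-cDC2 and 243 to 348 in CDP-cDC2. The 6 markers of plasmacytoid dendritic cells (pDC) summed to 272 to 285, 232 to 236, 292 to 495 and 183 to 286 TPM, and the 7 T cell markers to 49.98 to 60.5, 3.16 to 6.0, 13.3 to 25.9 and 4.87 to 8.11 TPM, in the same order. The part of these cells in the results below was not tested. In RNA from sorted populations, fewer cells of a type and less RNA per cell cannot be told apart.

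Both CDP3 and M3 stood apart in these genes, and their group labels were kept. In CDP3, 73 of the 77 tested members were below the mean of the other 2 CDP-cDC2 libraries, by a median of -0.38 in log2(FPKM + 1), where the median over all 14538 genes was -0.051. In M3, 63 of the 77 were above the other 2 M-cDC2 libraries, by a median of 0.22 against -0.076 over all genes. Results are therefore also given without both libraries.

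The region around the annotated start of transcription of members called in 1 or more comparisons is shown first, with its pyrimidine runs, since the TOP motif is such a run at the 5′ end of the mRNA. RefSeq promoters (GRCm38.p6, 250 bases before to 50 after the start) were matched for 60 of the 80 members. The next lines give 30 bases around the first run of a C followed by at least 7 C or T on the sense strand, between 20 bases before and 50 after the start, with the run in capitals. The members called between CLP-cDC2 and CDP-cDC2 come first.
Rps27l: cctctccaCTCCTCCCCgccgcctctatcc
Rpl15: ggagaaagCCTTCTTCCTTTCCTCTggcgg
Rps18: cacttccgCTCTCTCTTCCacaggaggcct
Rps10: cgcgcacgCCCCTTCCTTTCCagcctccgc
Rps15a: ccggcccaCTCTCTTTCTgccatcttccct
Rps16: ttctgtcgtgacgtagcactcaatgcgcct
The members called between a transfer and a reporter group, beside Rps18, follow.
Rpl26: gtgtagttCTCTTTCCTTTTgcggccatcg
Rpl36a: ggctctagCCTCTCTCTTTCCgagctgcta
Rpl5: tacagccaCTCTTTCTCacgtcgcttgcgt
Rpl12: ggaggaggcaacggtgcaaCTTTCTTCggt
The windows lie at chr9:66946066-66946095, chr14:18270969-18270998, chr17:33955646-33955675, chr17:27635226-27635255, chr7:118116141-118116170, chr7:28350679-28350708, chr11:68901581-68901610, chrX:134585673-134585702, chr5:107900500-107900529 and chr2:32961732-32961761, on the minus strand for Rpl15, Rps18, Rps10 and Rps15a and on the plus strand for the others. Rps16 had no such run in the window and is shown around its annotated start. The longest run shown was that of Rpl15, with 17 pyrimidines, and the shortest that of Rpl12, with 8. Counted from 0 at the annotated start, the run began at -4 in Rpl15, -2 in Rps18 and -3 in Rps10 and so covered the start. In Rps27l (-12), Rps15a (-15) and Rpl5 (-20) it ended before the start, and in Rpl26 (23), Rpl36a (27) and Rpl12 (39) it lay after it. The runs were therefore not shown to be 5′ terminal in these 6 genes.

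The run was present in 47 of the 60 members, or 78.3%, against 22.6% of 8068 tested protein-coding genes and 22.7% of the 27025 genes with a promoter of that length. A second short sequence, CCGGAAG (the core bound by ETS family factors, searched on both strands over all 300 bases), stood in 41.7% of the 60 members, 22.8% of the tested genes and 9.93% of all. AAGATGGC, the core bound by YY1, and TATAAA, the letters of the TATA box, were searched in the same way. AAGATGGC stood in 8.33%, 5.92% and 3.19%, and TATAAA in 6 of the 60 members (10%), 8.52% of the tested genes and 15.7% of all. As TATAAA was taken at any position and on either strand, these are not shares of promoters with a TATA box. Matches of different motifs may overlap, and a match describes letters, not a bound site. The 150 bases upstream of the start are shown for the members called between CLP-cDC2 and CDP-cDC2 that hold CCGGAAG there, which is in capitals.
Rpl15: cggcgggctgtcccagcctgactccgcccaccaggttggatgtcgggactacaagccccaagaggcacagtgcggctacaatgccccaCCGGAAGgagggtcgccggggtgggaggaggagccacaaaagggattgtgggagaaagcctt
Rps10: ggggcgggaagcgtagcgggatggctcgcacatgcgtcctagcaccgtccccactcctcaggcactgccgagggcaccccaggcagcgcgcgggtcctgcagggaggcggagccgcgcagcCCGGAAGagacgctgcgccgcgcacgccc
Rps18: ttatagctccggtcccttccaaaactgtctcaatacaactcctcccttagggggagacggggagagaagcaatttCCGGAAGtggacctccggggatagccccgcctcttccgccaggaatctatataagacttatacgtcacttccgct
These lie on the minus strand at chr14:18270987-18271136, chr17:27635245-27635394 and chr17:33955666-33955815. Of the 9 members called between those groups 6 had a promoter in the table, and 5 of these held the pyrimidine run.

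The mRNAs of nearly all of the genes were abundant in these cells. On the TPM scale, which is per length and so comparable between genes, the median of the 77 tested members was 613 against 11.5 over all tested genes, and 60 of the 80 were among the 500 genes of highest mean TPM. Among those with the highest mean levels were Rpl36 (2691 TPM) and Rps29 (2387 TPM), the second of which encodes a protein of the head of the small subunit. The lowest were Rpl22 (135 TPM), Rps24 (107 TPM) and Rps15a (95.2 TPM), although the proteins enter the ribosome in near equal numbers. Lengths in the table run from 383 bases for Rpl36 to 6270 for Rps15a, and the length enters the value, since FPKM and TPM divide by it. The median coefficient of variation between replicates of a group was 9.58% over the tested members, from 3.08% to 18.9%, and even the least read of them had 2388 reads in its shallowest library.

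**Figure D1:**
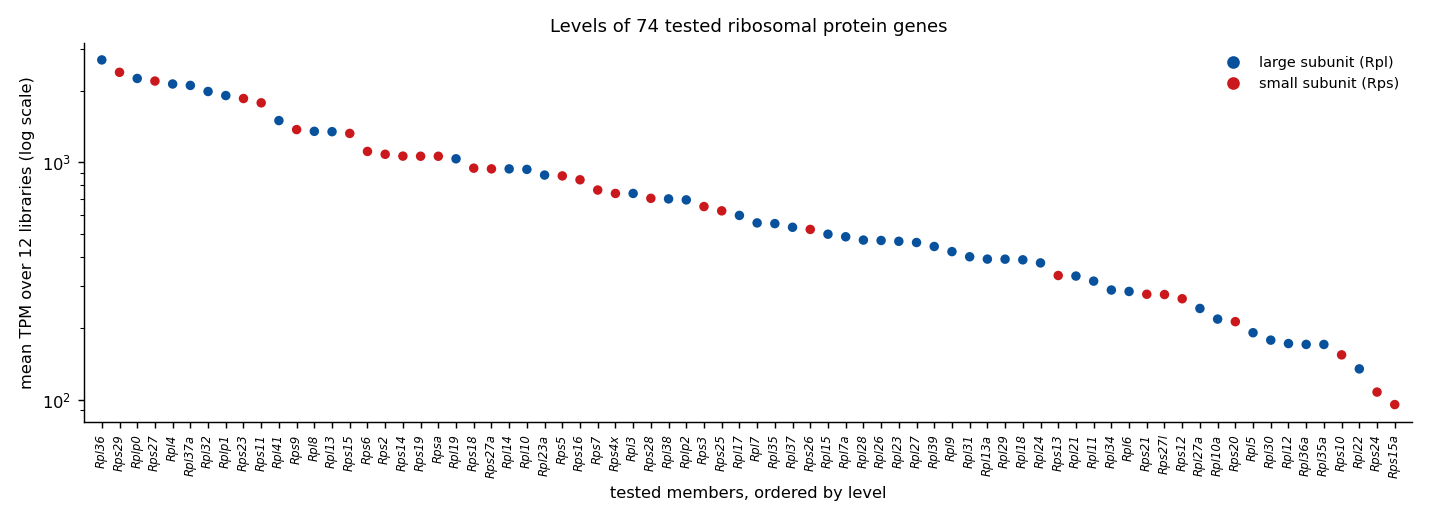
Mean TPM over the 12 libraries (log axis) of 74 tested members, ordered from high to low along the horizontal axis, large subunit genes in blue and small subunit genes in red. Both subunits are spread over the whole range, from Rpl36 with 2691 TPM down to Rps15a with 95.2 TPM.

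Of the paralogs with a suffix l, 3 were at or near 0. Rpl10l, the testis copy of the X-linked Rpl10, was listed at 0 in all 12 libraries, where 3 reads would be worth 0.0398 to 0.11 FPKM. Rpl3l, the muscle copy of Rpl3, reached 0.0666 to 0.429 FPKM on 4 to 52 reads, and Rpl39l, the testis copy of Rpl39, 0 to 0.877 FPKM on at most 37 reads. Their partners were abundant, with mean levels of 931 TPM for Rpl10, 737 for Rpl3 and 441 for Rpl39. Rps27l differed from these copies, since its mean level was 277 TPM beside 2193 for Rps27. Rps4l, the copy of Rps4x (737 TPM), is annotated as a transcribed processed pseudogene in the table, so the rule did not take it. It averaged 48.9 TPM.

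Of the stalk genes, whose proteins recruit translation factors to the ribosome, Rplp0 stood at 1038, 984 and 1119 FPKM in L-cDC2, 1017, 1149 and 1446 in M-cDC2, 1265, 1250.5 and 1038 in CLP-cDC2 and 997, 1003 and 754 in CDP-cDC2. The highest library was M3 and the lowest CDP3, and the CLP-cDC2 libraries all exceeded the CDP-cDC2 libraries without passing the test (log2 difference 0.37 ± 0.15 (SE), adjusted p = 0.12). For Rplp1 that difference was 0.30 ± 0.15 (SE), adjusted p = 0.2, and for Rplp2 0.24 ± 0.17 (SE), adjusted p = 0.38. Rps6, the substrate of the S6 kinases, differed by 0.31 ± 0.11 (SE), adjusted p = 0.078, Rpsa, also known as the laminin receptor, by 0.33 ± 0.13 (SE), adjusted p = 0.13, and Rps27a, made as a fusion with ubiquitin, by 0.25 ± 0.13 (SE), adjusted p = 0.22. None of these 6 genes passed the test in any of the 5 comparisons.

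Summed over all 80 members, ribosomal protein mRNA made up 6.24, 6.27 and 6.34% of all TPM in the L-cDC2 libraries, 6.36, 6.42 and 7.41% in M-cDC2, 7.37, 6.94 and 6.52% in CLP-cDC2 and 6.47, 6.37 and 5.35% in CDP-cDC2. Every CLP-cDC2 library was above every CDP-cDC2 library, though CLP3 and CDP1 lay close together. The L-cDC2 libraries were all below the M-cDC2 libraries by little, apart from M3, which had the highest share of the 12. As a share of assigned reads the sums were 5.19, 4.94 and 5.17%, 5.22, 5.30 and 6.24%, 6.15, 5.85 and 5.54% and 5.43, 5.17 and 4.20% in the same order. On this scale too the CLP-cDC2 libraries lay above the CDP-cDC2 libraries and the L-cDC2 libraries below the M-cDC2 libraries.

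**Figure D2:**
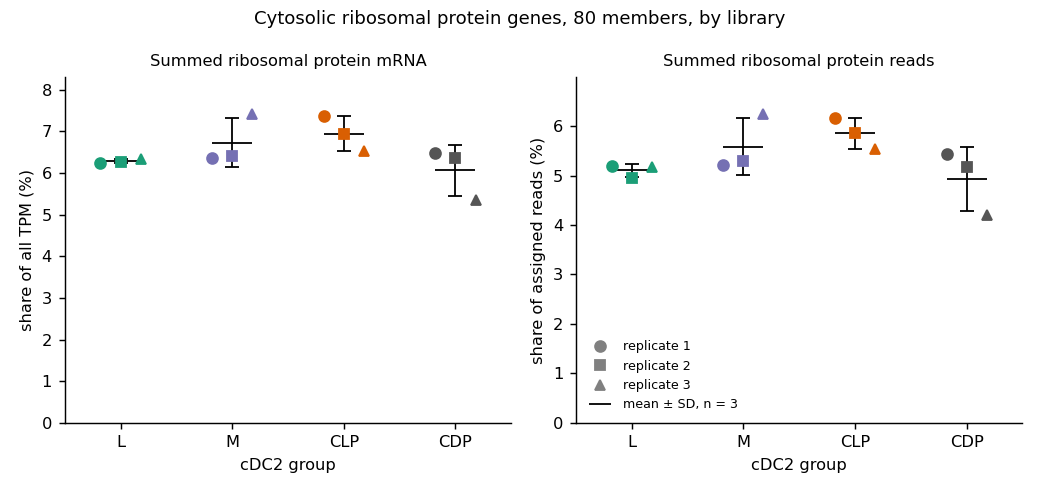
Share of all TPM (left) and of assigned reads (right), in percent, taken by the 80 ribosomal protein genes in each library, by group (points, with symbols for replicates, and bars for the mean ± SD, n = 3). CDP3 is lowest at 5.35% of TPM and M3 highest at 7.41%, while the other libraries lie between 6.24% and 7.37%.

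Between the transferred groups the ribosomal protein genes were shifted upward in the progeny of CLPs. Of 77 tested members 9 rose in CLP-cDC2 against CDP-cDC2 and none fell (limma, Benjamini-Hochberg adjusted p under 0.05 over all 14538 genes). This is 11.7% of the members, where 7.02% of all tested genes rose and 6.12% fell. Of the 10113 protein-coding genes tested 8.47% rose and 7.16% fell. In a separate fit with a filter at 5 FPKM, 1059 of 8369 genes rose. The count alone was therefore not shown to set the members apart from other abundant genes. The log2 difference in FPKM + 1, the scale of all differences here, was above 0 for 76 of the 77 members, with a median of 0.29 and a range from -0.12 to 0.69, where the median over all genes was -0.011. In 38 members the 3 CLP-cDC2 libraries all exceeded the 3 CDP-cDC2 libraries, an order that 16.7% of all tested genes had. No member had the opposite order, which 13% of all genes had. Of the marker sums given above, those of cDC1, pDC, B cells and T cells were also higher in every CLP-cDC2 than in every CDP-cDC2 library, and those of cDC2 and of monocytes and macrophages were lower. Their part in the difference was not tested.

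Without both CDP3 and M3, the median over the members was 0.18 and 67 of 77 were above 0. Then 5 members rose (Rps27l, Rpl15, Rps16, Rps15a and Rps18) where 5.17% of all genes did. Leaving out any 1 CLP-cDC2 library, CDP3, L1 or L3, or M1 or M2 left 1 to 5 called members, the fewest without CLP2, and leaving out CDP1 gave 13. With only the CLP-cDC2 and CDP-cDC2 libraries in the fit no member passed, and 2 passed after quantile normalization, where the median was 0.11.

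The small subunit held 7 of the 9 genes, 22.6% of its 31 members, and the large subunit 2 of 46, or 4.35%. The medians of the subunits were close, 0.31 and 0.27. Rps27l, a paralog of Rps27 known as a target of p53 (ENSMUSG00000036781, chromosome 9, 66853368 to 66856798, plus strand in the coordinates of the deposited table, whose build is not stated), stood at 114, 110.3 and 135 FPKM in the L-cDC2 libraries, 144, 152 and 157 in M-cDC2, 152, 166 and 172 in CLP-cDC2 and 107, 124 and 76.5 in CDP-cDC2. The CLP-cDC2 and M-cDC2 libraries were the high ones and did not overlap the others, and CDP3 was the lowest of the 12. The difference between CLP-cDC2 and CDP-cDC2 was 0.69 ± 0.15 (SE), adjusted p = 0.013, and the call was kept when any 1 library was left out (adjusted p up to 0.046). Its partner Rps27 was the 1 member that leaned the other way, at -0.12 ± 0.15 (SE) (95% confidence interval -0.46 to 0.21). Rps27 stood at 1066, 1182 and 985 FPKM in the L-cDC2 libraries, 1044, 1014 and 1417 in M-cDC2, 942, 946 and 974 in CLP-cDC2 and 1173, 1142 and 837 in CDP-cDC2, and only its CLP-cDC2 libraries were tightly grouped.

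Rps16, whose protein reaches the tRNA in the P site (ENSMUSG00000037563, chromosome 7, 28050077 to 28052580, plus strand), stood at 381, 352 and 402 FPKM in the L-cDC2 libraries, 401, 430.5 and 454 in M-cDC2, 484, 467 and 446 in CLP-cDC2 and 359.8, 371 and 333 in CDP-cDC2. Its CLP-cDC2 libraries exceeded all CDP-cDC2 and L-cDC2 libraries and overlapped M3. It rose by 0.39 ± 0.096 (SE), adjusted p = 0.019, a call lost without CLP1 or CLP2 (adjusted p up to 0.066). Rps18, which contacts the large subunit at the head, stood at 438, 374 and 412 FPKM in the L-cDC2 libraries, 427, 427 and 457 in M-cDC2, 561, 532 and 568 in CLP-cDC2 and 449, 446 and 374 in CDP-cDC2. The 3 CLP-cDC2 libraries lay above all of the 9 others. The rise was 0.39 ± 0.10 (SE), adjusted p = 0.026, and it was lost without any 1 of the 3 CLP-cDC2 libraries or CDP3 (adjusted p up to 0.073).

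Other small subunit genes that rose were Rps20 (0.60 ± 0.17 (SE), adjusted p = 0.042), Rps15a (0.41 ± 0.12 (SE), adjusted p = 0.042) and Rps10 (0.43 ± 0.13 (SE), adjusted p = 0.049). RPS10 is among the human genes mutated in Diamond-Blackfan anaemia. For Rps20 the spread in CDP-cDC2 was wide, with 97.4, 95.7 and 57.5 FPKM against 134, 127 and 110.2 in CLP-cDC2, the lowest being CDP3. Rps15a had 35.4, 39.5 and 34.9 FPKM in CDP-cDC2 and 49.1, 48.1 and 49.2 in CLP-cDC2, but the L-cDC2 libraries (48.6, 48.2 and 48.1 FPKM) were as high as CLP-cDC2. These calls rested on all the libraries. With 1 library left out, that of Rps20 was kept only without CDP1 or CDP2, CLP3 or M3 (adjusted p up to 0.12). That of Rps10 was kept only without CDP1 or M3 (up to 0.14), and that of Rps15a only without M3 (up to 0.1). The exons of Rps10 overlap those of Gm49804 on the same strand over 475 bases, so its value depends on how shared reads were counted.

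In the large subunit, Rpl15, which lies in the core of the subunit (ENSMUSG00000012405, chromosome 14, 4198305 to 4201873, plus strand), stood at 243, 216 and 226 FPKM in the L-cDC2 libraries, 239, 249.7 and 258 in M-cDC2, 275, 276 and 273 in CLP-cDC2 and 221, 211 and 192 in CDP-cDC2. Its 3 CLP-cDC2 libraries lay close together and above all of the 9 others. It rose by 0.40 ± 0.093 (SE), adjusted p = 0.015, and the call was lost without CLP2 (adjusted p = 0.054). Its exons share 105 bases with Nkiras1 on the other strand, which averaged 6.33 FPKM. Rpl17, a protein at the exit of the nascent chain tunnel, stood at 341, 325 and 318 FPKM in CLP-cDC2 and 254, 276 and 259 in CDP-cDC2, and these did not overlap. It rose by 0.32 ± 0.094 (SE), adjusted p = 0.043, kept only without L2 or M3 (up to 0.11), and it was not called on the TPM scale. Just outside the threshold was Rpl3, which shapes the peptidyl transferase centre, at 0.38 ± 0.12 (SE), adjusted p = 0.051.

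**Figure D3:**
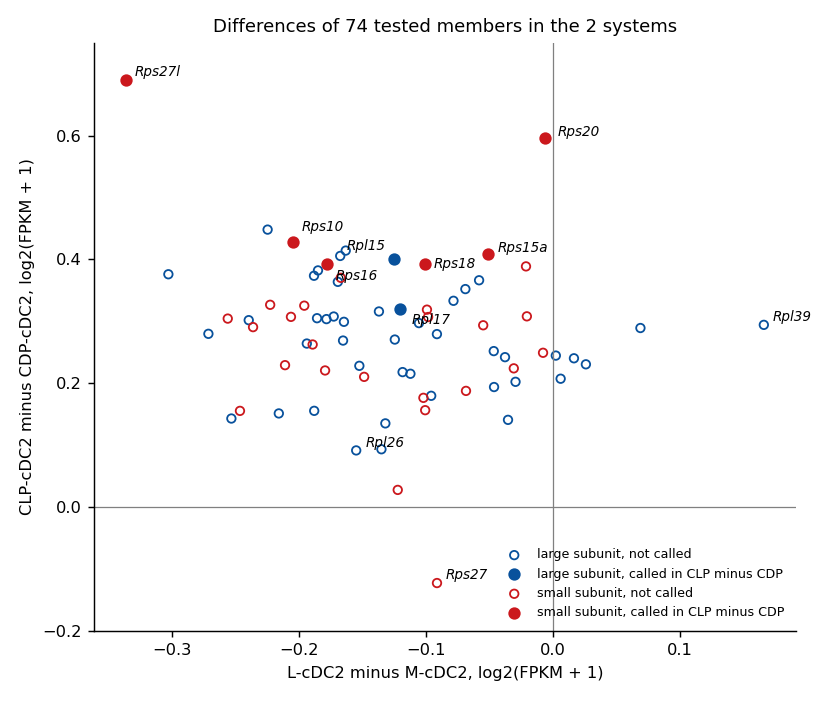
Log2 difference in FPKM + 1 between L-cDC2 and M-cDC2 (horizontal) and between CLP-cDC2 and CDP-cDC2 (vertical) for 74 tested members, blue for the large and red for the small subunit, filled where the vertical difference passed the test. Only Rps27 lies below 0 on the vertical axis (73 of 74 above), while 68 of 74 lie below 0 on the horizontal axis, where no member passed.

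In the reporter mice no ribosomal protein gene passed the test between L-cDC2 and M-cDC2. The lowest adjusted p was 0.6 (limma) and 1 member, Rps27l at -0.34 ± 0.15 (SE), had an unadjusted p under 0.05, and none was called under any alternative. Among all tested genes 1.29% were higher and 0.44% lower. The members leaned downward in L-cDC2, with 71 of 77 below 0, a median of -0.13 and a range from -0.34 to 0.17, where the median over all genes was 0.039. The highest was Rpl39 (0.17 ± 0.12 (SE)). In 14 members all L-cDC2 libraries were below all M-cDC2 libraries, an order that 6.67% of all genes had, and in none were they all above, as in 12.7% of all genes. Without M3 and CDP3 the median was -0.077 and 22 of 77 were above 0. Of the marker sums given above, those of cDC2, cDC1 and monocytes and macrophages were also lower in every L-cDC2 than in every M-cDC2 library. Those of pDC, B cells, plasma cells, T cells and NK cells were higher. Single markers did not all follow their sums. In the cDC2 list H2-Ab1 (7424 to 8053 FPKM in L-cDC2, 9281 to 11075 in M-cDC2) and Cd209a were lower in every L-cDC2 library. Itgax (85.0 to 134 against 54.8 to 76.1), Itgam and Esam were higher in every one. In the pDC list Ly6d (33.2 to 45.9 against 0.0273 to 1.64) was higher and Bst2 (54.8 to 56.8 against 69.4 to 81.8) lower in every L-cDC2 library. The part of these markers in the lean was not tested.

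Whether the lineage difference was the same in both systems was tested as the difference between CLP-cDC2 minus CDP-cDC2 and L-cDC2 minus M-cDC2. It was above 0 for 76 of 77 members, with a median of 0.41 where the median over all genes was -0.054. It passed for 3 members, 3.9%, all higher. Of all genes 2.38% were higher and 3.61% lower, and of protein-coding genes 2.89% and 3.96%. With a filter at 5 FPKM, 482 of 8369 genes were higher. The 3 members were Rps27l (1.03 ± 0.22 (SE), adjusted p = 0.02), Rps16 (0.57 ± 0.14 (SE), adjusted p = 0.031) and Rpl15 (0.53 ± 0.13 (SE), adjusted p = 0.037). For Rps27l the difference was 0.69 between the transferred groups and -0.34 between the reporter groups. Its call was lost without L2 or M2 (adjusted p up to 0.06), that of Rps16 was kept only without M1, CLP3 or a CDP-cDC2 library (up to 0.089), and that of Rpl15 only without CDP1 (up to 0.1). Without both CDP3 and M3 together Rps27l alone passed, at 0.80, where 1.22% of all genes were higher, and the median over the members was 0.24. The count was 9 without CDP1, and 0 or 1 without L1, L2 or L3, M2 or M3, or CLP1 or CLP2.

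The transferred cells were also set against the reporter cells of like origin, comparisons that use the same libraries as those above. In them the transfer, the B6.SJL hosts, the reporter genotype and any unstated difference in handling change together and cannot be told apart. In CLP-cDC2 against L-cDC2, 6 of 77 members rose, 7.79%, and none fell, where 4.29% of all tested genes rose and 6.32% fell. Of protein-coding genes 5.07% rose and 6.39% fell, and with a filter at 5 FPKM 660 of 8369 genes rose. The median over the members was 0.23 and 72 of 77 were above 0, against a median of -0.0044 over all genes. In 46 members all CLP-cDC2 libraries exceeded all L-cDC2 libraries (17.8% of all genes) and in 1 the order was opposite (17.9%). In CDP-cDC2 against M-cDC2, 1 member rose, 1.3%, and none fell, where 1.62% of all genes rose and 0.956% fell. There the median was -0.18, and 10 of 77 were above 0. In 20 members all CDP-cDC2 libraries were below all M-cDC2 libraries (9.94% of all genes), and in 2 they were all above (14.5%). Without both CDP3 and M3, 27 members rose in CLP-cDC2 against L-cDC2, where 8.21% of all genes did. Neither library belongs to that comparison, so its median of 0.23 and its 72 of 77 above 0 were unchanged. They enter it only through the estimate of the spread, which the 4 groups share. The median in CDP-cDC2 against M-cDC2 was -0.0069 without them, with 38 of 77 above 0. With 1 library left out, the count for CLP-cDC2 against L-cDC2 was 20 without CDP3, and 1 or 2 without CLP1 or CLP2 or any L-cDC2 library. That for CDP-cDC2 against M-cDC2 was 2 without CDP2. The sums of cDC1 and pDC markers were higher and those of B, plasma, T and NK cell markers lower in every CLP-cDC2 than in every L-cDC2 library. Those of plasma cell and of monocyte and macrophage markers were higher and that of cDC1 markers lower in every CDP-cDC2 than in every M-cDC2 library. Their part was not tested.

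Rpl26 was the member that rose in both of these comparisons. Its protein sits near the tunnel exit and is known to bind the mRNA of p53 (ENSMUSG00000060938, chromosome 11, 68792409 to 68797815, plus strand). It stood at 143, 163 and 143 FPKM in the L-cDC2 libraries, 151, 159.7 and 191 in M-cDC2, 331, 286 and 288 in CLP-cDC2 and 309.5, 270.3 and 269.6 in CDP-cDC2. All 6 libraries of transferred cells lay above all 6 of the reporter mice, and within each system the 2 lineages overlapped. Transfer, hosts, reporter genotype and handling cannot be told apart in this order. The difference was 1.01 ± 0.12 (SE), adjusted p = 0.00019, in CLP-cDC2 against L-cDC2 and 0.76 ± 0.12 (SE), adjusted p = 0.0065, in CDP-cDC2 against M-cDC2. Between the lineages it was 0.091 ± 0.12 (SE) (95% confidence interval -0.16 to 0.35) in transferred cells and -0.15 ± 0.12 (SE) (-0.41 to 0.10) in reporter mice. Both calls were kept when any 1 library was left out (adjusted p up to 0.0018 and 0.047). The 6 pseudogenes named after Rpl26 summed to 1.02 to 1.99 FPKM in the group means. The closest tested gene, Ndel1 at 29725 bases, did not pass in either comparison (0.21, adjusted p = 0.35, and 0.020, adjusted p = 0.95). Farther away, Aurkb at 138658 bases (0.61, limma adjusted p = 0.005) and Tmem107 at 163817 bases (0.97, adjusted p = 0.02) rose in CLP-cDC2 against L-cDC2. Per1 at 188228 bases rose in CDP-cDC2 against M-cDC2 (1.01, limma adjusted p = 0.048). Each of them passed in that comparison alone. Whether the change of Rpl26 is shared with its region was not tested.

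**Figure D4:**
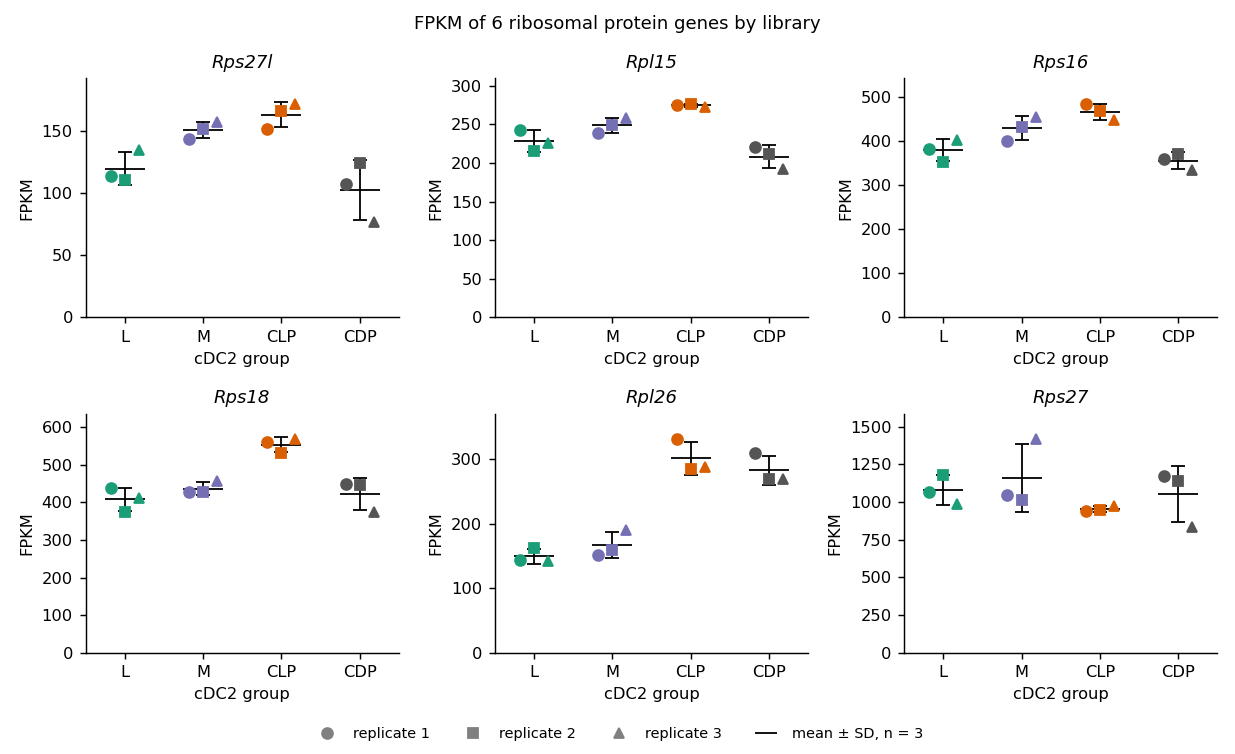
FPKM in each library (vertical axes from 0) of Rps27l, Rpl15, Rps16, Rps18, Rpl26 and Rps27 by group, with symbols for replicates and bars for the mean ± SD, n = 3. Rps27l, Rpl15, Rps16 and Rps18 are higher in every CLP-cDC2 than in every CDP-cDC2 library, Rpl26 is higher in all 6 libraries of transferred cells than in the 6 of reporter mice, and Rps27 shows neither order.

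Other members that rose in CLP-cDC2 against L-cDC2 were Rps18 (0.44 ± 0.10 (SE), adjusted p = 0.017), Rpl36a (0.42 ± 0.10 (SE), adjusted p = 0.025), Rpl5 (0.46 ± 0.12 (SE), adjusted p = 0.029) and Rpl12 (0.40 ± 0.11 (SE), adjusted p = 0.042). Rpl5 joins the 5S ribosomal RNA particle that can bind MDM2, and Rpl12 lies at the base of the stalk. Rpl5 stood at 76.1, 68.2 and 87.5 FPKM in L-cDC2, 83.5, 89.7 and 80.5 in M-cDC2, 110.1, 106 and 103 in CLP-cDC2 and 106, 86.5 and 109 in CDP-cDC2, so CDP1 and CDP3 were as high as CLP-cDC2. Rpl36a, X-linked, stood at 99.5, 102 and 90.3 FPKM in CLP-cDC2 and a narrow 73.3, 72.5 and 71.8 in L-cDC2. Each of these calls was lost without 4 or more single libraries. For Rps18 these were CLP1, CLP3, L2 and L3 (adjusted p up to 0.089), and for Rpl36a CLP1 and CLP2 and any L-cDC2 library (up to 0.084). For Rpl5 they were any CLP-cDC2 library and L1 and L2 (up to 0.14), and for Rpl12 CLP1 and CLP2, any L-cDC2 library and M1 and M2 (up to 0.14).

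Within groups the members moved together. Over their deviations from group means in the 12 libraries, the first component held 71.0% of the variance. The median correlation between 2 members was 0.64 and 89.5% of pairs were above 0, a description over libraries that share depth and library handling. These measures were not computed for other genes, so the shared movement was not shown to be particular to the members. CDP3 and M3 set most of the range. The 4 members that were not lower in CDP3 than in the other 2 CDP-cDC2 libraries were Rps2 (0.35), Rpl5 (0.18), Rpl12 (0.086) and Rpl10 (0.017), and the lowest was Rps20 (-0.74). These 5 were chosen with their values in view. The 20 shortest members (up to 1327 bases) were lower in CDP3 by a median of -0.47 and higher in M3 by 0.33, and the 20 longest (2691 bases or more) by -0.33 and 0.068. Over the members the deviations of these 2 libraries correlated at -0.55, and over all 14538 genes at -0.43. The correlation with log2 length was 0.31 and -0.41 over the members and 0.30 and -0.27 over all genes. The part of length in the differences between groups was not tested.

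**Figure D5:**
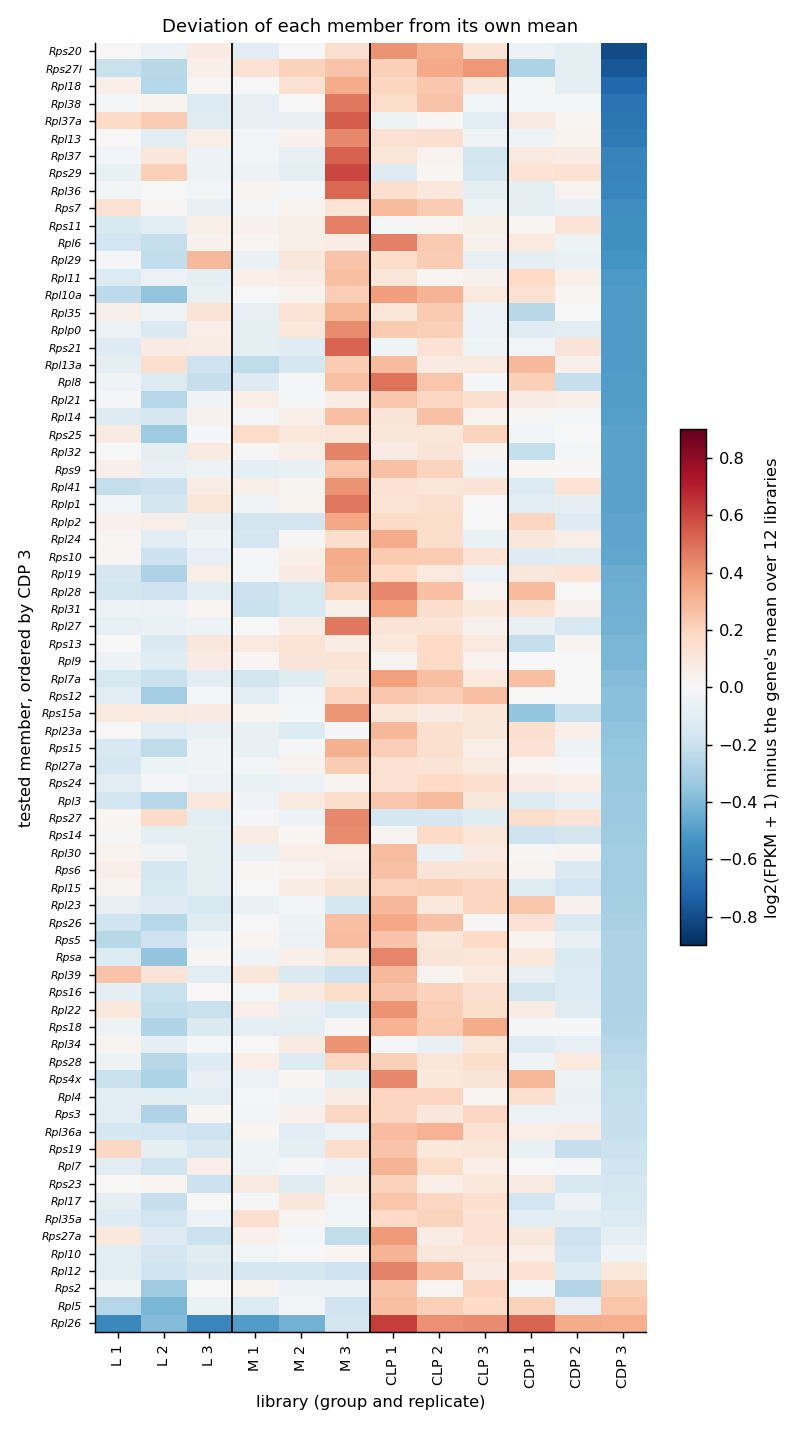
Log2(FPKM + 1) of 74 tested members (rows) in each library (columns, by group) as its difference from the gene's own mean over the 12 libraries, red for higher and blue for lower. CDP 3 is blue in nearly all rows and M 3 red in most, the 3 CLP columns are mostly red, and Rpl26 in the bottom row is blue in the reporter mice and red in the transferred cells.

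Other genes of ribosome production and translation, taken from lists, leaned the same way between the transferred groups. Of 78 mitochondrial ribosomal proteins, which build the separate ribosome of mitochondria, 16 rose in CLP-cDC2 against CDP-cDC2 and none fell, with a median of 0.37. Mrpl18 (0.62 ± 0.15 (SE), adjusted p = 0.018), Mrpl51 (0.61) and Mrps28 (0.60) had the largest differences. Of 65 ribosome biogenesis genes 14 rose and none fell (median 0.29), led by Dkc1, the pseudouridine synthase of ribosomal RNA (0.72 ± 0.16 (SE), adjusted p = 0.011), Brix1 (0.68) and the box C/D particle protein Nop58 (0.64). Of 30 translation factors and other TOP genes 7 rose and none fell (median 0.24), led by Hnrnpa1 (0.56 ± 0.12 (SE), adjusted p = 0.011), Eif3i (0.54) and the elongation factor subunit Eef1d (0.51). The background is 7.02% higher and a median of -0.011 over all genes, and 8.47% and 0.012 over protein-coding genes. In the separate fit with a filter at 5 FPKM, 1059 of 8369 genes rose and the median was 0.062. The genes of these lists were not counted in that fit. Without CDP3 alone, the calls of Mrpl18, Mrpl51, Mrps28, Brix1, Nop58, Eif3i and Eef1d were lost (adjusted p up to 0.11 over the libraries left out singly), as they were without CLP2, while those of Dkc1 and Hnrnpa1 were kept without any 1 library.

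Among 24 mTORC1 and TOP regulators none rose and 3 fell in CLP-cDC2 against CDP-cDC2, where 6.12% of all genes fell. Ddit4, an inhibitor of mTORC1 induced by stress, fell by 1.14 on the log2 scale (adjusted p = 0.0053). Mxd4, an antagonist of MYC, fell by 0.97 (adjusted p = 0.00082), and Sesn2, a leucine sensor upstream of mTORC1, fell by 0.83 (adjusted p = 0.023). The calls of Ddit4 and Mxd4 were kept without any 1 library, and that of Sesn2 was lost without CDP3 or CLP2 or CLP3 (up to 0.092). None of 7 tested S6 kinase genes passed. Between L-cDC2 and M-cDC2 no gene of any of these lists passed (medians -0.095 for the mitochondrial ribosomal proteins, -0.076 for biogenesis, -0.077 for translation and 0.061 for the regulators).

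The difference between the systems passed upward for 3 of the 78 mitochondrial ribosomal proteins (3.85%, where 2.38% of all genes were higher), Mrps28 (0.97), Mrps14 (0.70) and Mrpl4 (0.57). It passed for 5 of 65 biogenesis genes (7.69%), led by Dkc1 (1.03), Nob1 (0.93) and Nop58 (0.88), and for 2 of 30 translation genes (6.67%), Btf3 (0.57) and Eif4a1 (0.54). Sesn2 (-1.42) and Mxd4 (-1.07) were lower, 8.33% of the 24 regulators where 3.61% of all genes were. Of these the call of Mxd4 alone was kept without any 1 library. In CLP-cDC2 against L-cDC2, 9 mitochondrial ribosomal proteins rose (11.5%, where 4.29% of all genes rose, led by Mrps28, 0.67, Mrpl18, 0.63, and Mrpl2, 0.53). There 12 biogenesis genes (18.5%) rose and Noc2l fell (-0.83), and 5 translation genes (16.7%) rose, among them Pabpc1, the poly(A) binding protein (0.72), Hnrnpa1 (0.71) and Nap1l1 (0.52). Of the regulators Larp1, which binds the TOP motif, rose (0.90 ± 0.20 (SE), adjusted p = 0.014, lost without CLP1 or L2, up to 0.06), and Sesn2 (-1.27), Mxd4 (-0.88) and Mlst8 fell (12.5% of the regulators, where 6.32% of all genes fell). The S6 kinase gene Rps6ka1 fell too (-0.63). Of the calls named for this comparison, those of Hnrnpa1, Sesn2 and Mxd4 were kept without any 1 library. Those of Mrps28, Mrpl18, Mrpl2, Noc2l, Pabpc1, Nap1l1, Larp1 and Rps6ka1 were lost without 1 to 9 single libraries (limma, adjusted p up to 0.18). That of Mlst8 was not followed. In CDP-cDC2 against M-cDC2, where 1.62% of all genes rose, the genes called in these lists were Larp1 (0.85 ± 0.20 (SE), adjusted p = 0.044) and the translation repressor Eif4ebp2 (0.72 ± 0.17 (SE), adjusted p = 0.044), each lost without any of 10 single libraries (up to 0.13 and 0.12).

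Genes of cytosolic ribosomal proteins whose symbols fall outside the rule gave mixed results. Rps3a1 had 994, 921 and 1082 FPKM in the L-cDC2 libraries, 976, 1054 and 978 in M-cDC2, 1254, 1192 and 1042 in CLP-cDC2 and 895, 908 and 692 in CDP-cDC2, and the CLP-cDC2 libraries exceeded all CDP-cDC2 libraries (difference 0.49 ± 0.12 (SE), adjusted p = 0.022). That call was lost without CDP3 or CLP1 or CLP2 (adjusted p up to 0.081). Rpl22l1, the paralog of Rpl22, rose in CLP-cDC2 against CDP-cDC2 (0.51 ± 0.14 (SE), adjusted p = 0.037) and against L-cDC2 (0.52 ± 0.14 (SE), adjusted p = 0.038), where Rpl22 itself stood at 0.37 ± 0.13 (SE), adjusted p = 0.08, and 0.37 ± 0.13 (SE), adjusted p = 0.085. Rpl36al rose in CLP-cDC2 against L-cDC2 (0.59 ± 0.14 (SE), adjusted p = 0.02), as Rpl36a did. These calls of Rpl22l1 and Rpl36al were lost without 4 to 7 single libraries, CLP1 among them (up to 0.14). Fau, made as a fusion with a ubiquitin-like protein, and Rps27rt, a copy of Rps27, passed in no comparison. The differences between CLP-cDC2 and CDP-cDC2 were 0.011 ± 0.13 (SE) and -0.47 ± 0.30 (SE).

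Reads of these genes can be shared with copies elsewhere in the genome. The table lists 321 pseudogenes with ribosomal protein symbols, 196 of them tested, and their reads came to 5.53 to 8.00 per 100 reads of the members. For CDP-cDC2 these ratios were 8.00, 6.92 and 6.23, and for CLP-cDC2 5.59, 5.66 and 6.23. The pooled ratio does not hold for each called member. Reads of the pseudogenes named after a member came to 56.6 per 100 of its own for Rpl36a, 34.9 for Rpl15, 32.0 for Rps10, 20.2 for Rpl17 and 16.5 for Rps16. They came to 7.77 for Rps15a, 7.72 for Rpl5, 4.99 for Rps18, 0.206 for Rpl26 and 0.129 for Rpl12, and none is named after Rps27l or Rps20. For Rpl15 the pseudogenes summed to a mean of 305 FPKM in L-cDC2, 348 in M-cDC2, 371 in CLP-cDC2 and 326 in CDP-cDC2, above the FPKM of Rpl15 itself in every group mean. For Rps16 they summed to a mean of 172 FPKM in L-cDC2, 199.8 in M-cDC2, 205 in CLP-cDC2 and 193 in CDP-cDC2. How reads were divided between these members and their pseudogenes is not stated, so their values are uncertain. Of the 80 members 61 have a named pseudogene and 37 overlap another annotated gene. The recovered reads of 63 tested members were whole numbers in no library, whereas 44.8% to 53.2% of detected genes had whole reads. How the differences depend on the counting of shared reads was not tested.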

How the data were processed

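Bulk RNA of 12 sorted cDC2 samples was sequenced after SMART-Seq HT amplification and Nextera XT library preparation, per the labels' protocols. The authors deposited 1 table of FPKM values for 55322 genes. The submitters' processing notes name STAR 2.7.9a, featureCounts 2.0.1, DESeq2 1.20.0, cutadapt 3.7, Trimmomatic 0.39 and Trim Galore 0.6.7 and the builds GRCh38 and GRCm38, with no role or order, and do not say how reads that map to several places or to either strand were counted. Gene starts in the table matched a GRCm38 annotation (GENCODE M21) for 1 of the 80 members, so coordinates are printed as deposited and are not on the build of the RefSeq promoters. FPKM times length summed to 1000000 in each library, and 100% of values lay on whole steps (tolerance 0.02), each of 0.01 read, from which depth was recovered. Since the reads of only part of the genes came out whole, no count model was used. TPM was computed from FPKM.

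Groups came from the sample titles. Differences were tested with limma 3.58.1 (R 4.3.3, trend, 4 group means, 8 residual degrees of freedom, two-sided) on log2(FPKM + 1), which understates changes of low genes, over genes that reached 1 FPKM in 3 or more libraries. P-values were adjusted by Benjamini-Hochberg over all 14538 genes, and called means under 0.05. The limma script was tested on simulated data. Other pseudocounts, filters, scalings and fits were tried, as was leaving out each library, and the removal of CDP3 and M3 together was chosen after seeing the data. Counts of members are set beside the share of all genes called, and no set test was run.

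The members and the gene lists were chosen with earlier results of these data known. A few genes are not reported here by name or drawn in the plots of single genes, though counts and medians include them. Named members are otherwise all those called in any comparison, the 3 highest and lowest by TPM, paralogs with a suffix l beside their partners, the stalk genes, Rpsa, Rps6 and Rps27a, and of each list up to 3 called genes per comparison by size. Mlst8 and the members compared by their deviation in CDP3 were named after their values were seen. Reads shared with pseudogenes or overlapping genes make single values uncertain, and 20 members without a usable promoter entry are not shown by sequence. Promoter sequences are from RefSeq.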

Additional observations from a re-analysis of the deposited data

Results flagged for a closer look

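In 3 members the difference between CLP-cDC2 and CDP-cDC2 was not the same as that between L-cDC2 and M-cDC2, by the test of the difference itself (limma over all 14538 genes). It was 1.03 for Rps27l (adjusted p = 0.02), 0.57 for Rps16 (adjusted p = 0.031) and 0.53 for Rpl15 (adjusted p = 0.037) in log2(FPKM + 1). All 3 were higher in each CLP-cDC2 than in each CDP-cDC2 library. Between the reporter groups the L-cDC2 libraries of Rps27l were all below the M-cDC2 libraries, while those of Rps16 and Rpl15 overlapped them. The Rps27l value was 0.80 without both CDP3 and M3, and still called (adjusted p = 0.031), while the calls of Rps16 and Rpl15 were lost. With 1 library left out, the call of Rps27l was lost without L2 or M2. That of Rps16 was lost without any of 7 single libraries, and that of Rpl15 without any of 11.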

How the results depend on the processing

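No member was called between L-cDC2 and M-cDC2 under any alternative, and the median over the members kept its sign in all 5 comparisons under all of them. Leaving out 1 library gave 0 called members for L-cDC2 minus M-cDC2 (median -0.16 to -0.077), 1 to 13 for CLP-cDC2 minus CDP-cDC2 (0.18 to 0.35), 0 to 9 for the difference between the systems (0.31 to 0.48), 1 to 20 for CLP-cDC2 minus L-cDC2 (0.20 to 0.27) and 1 to 2 for CDP-cDC2 minus M-cDC2 (-0.27 to -0.060). For CLP-cDC2 minus CDP-cDC2, where 9 were called, the count was 2 with no filter, 2 after quantile normalization (median 0.11), 2 after median-ratio scaling, 0 with only the 2 groups in the fit, 3 without the trend, and 5 without both CDP3 and M3 (median 0.18). For the difference between the systems, with 3 called, it was 0 with no filter, 6 with a filter at 5 FPKM, 1 after quantile normalization (median 0.19), 11 with array weights (median 0.27), 1 without the trend, 8 among protein-coding genes and 1 without those 2 libraries (median 0.24). For CLP-cDC2 minus L-cDC2, with 6 called, it was 12 with only the 2 groups, 21 with array weights and 2 without the trend. It was 27 without those 2 libraries, which enter this comparison only through the shared spread. For CDP-cDC2 minus M-cDC2, with 1 called, it was 0 with only the 2 groups, 4 with array weights (1 higher and 3 lower, median -0.046) and 3 among protein-coding genes, and the median was -0.049 after quantile normalization and -0.0069 without those 2 libraries. The causes of the other changes were not tested. Of 1546 values of 60 results on single named genes, 1089 kept direction and call, 457 kept direction alone and 0 reversed.

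Replicate numbers are shared between groups. The deviations of same-numbered libraries correlated at -0.43 to 0.28, and 2 of 12 libraries correlated best with their own number. These correlations cannot tell whether same-numbered libraries shared animals or handling, which is not stated. With the replicate block, 3 members were called for CLP-cDC2 minus CDP-cDC2, 1 for the difference between the systems, 4 for CLP-cDC2 minus L-cDC2, 1 for CDP-cDC2 minus M-cDC2 and 0 for L-cDC2 minus M-cDC2. With 3 libraries in each group, differences of the size of the member medians were within the reach of 1 library.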
